A study of Mus musculus with 10 samples.

Results

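The Dppa genes (developmental pluripotency associated) of the mouse were compared between retinoic acid-treated embryonic stem cells with and without a CTCF binding element. The members were the gene identifiers whose symbol is Dppa2, Dppa3, Dppa4, Dppa5a, Dppa5b or Dppa5c, 6 of the 52636 identifiers in the count tables. Of these 6, 5 had enough counts to be tested, among 16005 genes tested in all. RNA-seq of the mouse embryonic stem cell line E14 gave 2 libraries of unedited cells (WT) and 2 of cells of the genotype CBE-KO, which lack the element. The study's title places the element next to enhancers that contact the HoxA cluster. Cells of both genotypes were grown with LIF and inhibitors of MEK and GSK, then replated without them and given retinoic acid at a labelled dose of 2 µM, for 24 h per the series' design text. No untreated library was analysed here, so levels before retinoic acid are not known from these data. The labels do not say whether CBE-KO is 1 clone or several, and the design calls the replicates biological without naming separate cultures, so p-values measure the spread between these libraries.

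The members share a name, from screens for genes expressed like Pou5f1, and not a single protein family. Dppa2 and Dppa4 encode SAP-domain proteins that bind each other and CpG-rich promoters, and in embryonic stem cells they are needed to switch on Dux, Zscan4 and other genes of the 2-cell-stage embryo. Dppa3 (Stella, PGC7) encodes a protein of oocytes, germ cells and naive pluripotent cells that binds Uhrf1 and holds back maintenance DNA methylation. Dppa5a (Esg1) encodes a KH-domain RNA-binding protein abundant in pluripotent cells, and Dppa5b and Dppa5c are annotated in RefSeq as pseudogene copies of it.

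In the GRCm38.p6 RefSeq annotation, Dppa4 (chromosome 16, 48283735 to 48294292) and Dppa2 (48310274 to 48319513) are neighbours 15.98 kb apart. Dppa5b (chromosome 9, 78245487 to 78246600), Dppa5c (78271935 to 78273046) and Dppa5a (78367052 to 78368199) lie in a row, with gaps of 25.34 and 94.01 kb. The copies span 1114 and 1112 bases, against 1148 for Dppa5a. Dppa3 (chromosome 6, 122626424 to 122630271) is the member on the chromosome of the HoxA cluster.

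Library totals ranged from 14108038 to 15632960 counts, so that 3 counts, the floor of detection, came to 0.185 to 0.218 CPM, the unit of counts scaled by library size. All 8 pluripotent cell markers listed, Pou5f1, Sox2 and Nanog among them, were measured, with summed levels of 3889 to 3981 CPM in WT and, in CBE-KO, of 3534 to 3573 CPM. Fibroblast markers summed to 11.4 to 12.9 CPM in WT and to 14.8 to 17.6 CPM in CBE-KO. Thy1, the largest part of the sum, was at 8.08 and 9.23 CPM in WT and 7.70 and 10.1 CPM in CBE-KO. The collagen markers were higher in CBE-KO: Col1a1 had 48 and 50 counts in WT against 95 and 100. Col1a2 had 0 and 1 counts in WT against 12 and 8, and Col3a1 0 and 0 against 8 and 1. Dcn, Lum and Postn were at 0 counts in every library. The genotypes also differed in Y-linked transcripts: Ddx3y had 6 and 5 counts in WT against 920 and 822 in the edited cells, and Eif2s3y and Uty followed the same pattern. Loss of the element and any other difference between these cell populations cannot be told apart in this design.

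The comparison of CBE-KO with WT asks which Dppa transcripts differ when the element is missing. Dppa2 and Dppa4 were lower in CBE-KO, and Dppa5a, by far the highest of the 6 in counts, was higher. Dppa5b and Dppa5c were higher on average, with large differences between replicates. All 5 tested members passed edgeR's quasi-likelihood test (adjusted p under 0.05), 3 higher and 2 lower. Among all tested genes 43.1% passed, 21.6% as higher and 21.5% as lower, so that passing is common in this comparison. In 4 of the 5 the libraries of CBE-KO did not overlap those of WT, as in 70.4% of tested genes.

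**Figure D1:**
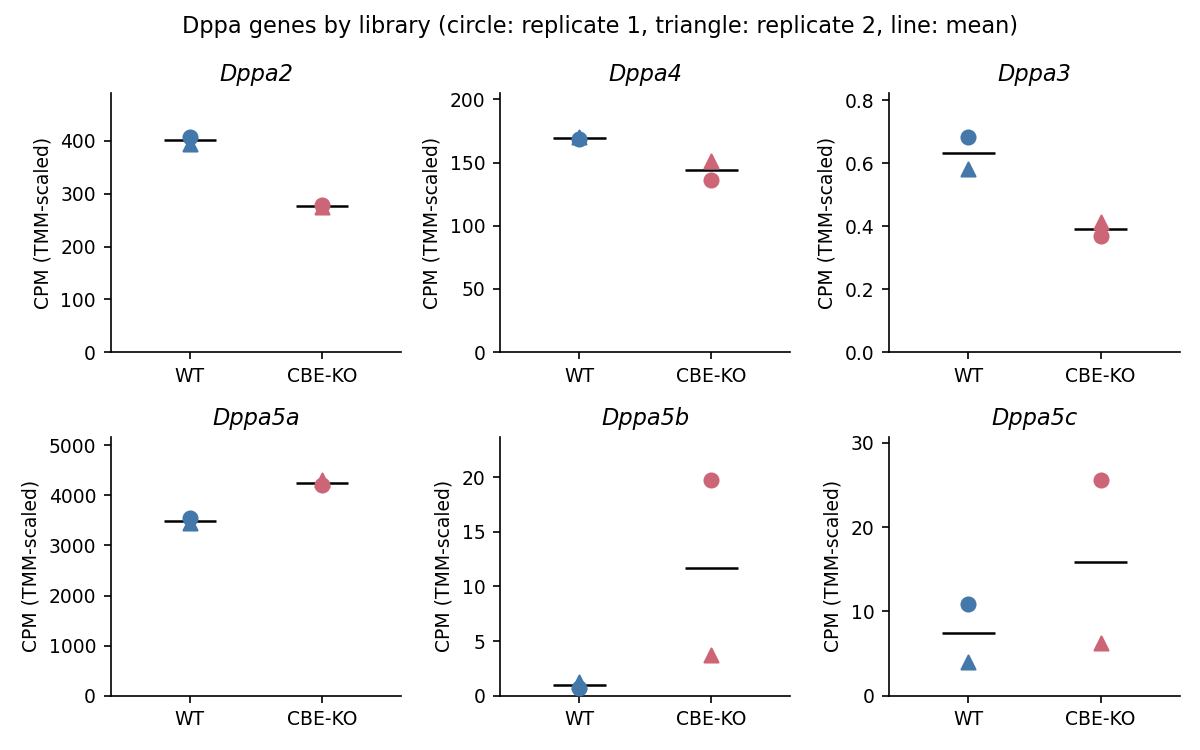
CPM of each Dppa gene (vertical axis, linear from 0, own scale per panel) in the 2 WT and 2 CBE-KO libraries, with the group mean as a line. Replicates lie close together for Dppa2, Dppa4 and Dppa5a, and far apart in CBE-KO for Dppa5b (19.7 and 3.71 CPM) and Dppa5c (25.6 and 6.25 CPM).

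Dppa2 (ENSMUSG00000072419) was counted 5961 and 5422 times in the WT libraries and 4528 and 3995 times in the CBE-KO libraries, or 408 and 394 CPM against 279 and 275 CPM. Both CBE-KO libraries were below both WT libraries, and the replicates of a group differed by at most 1.03-fold. The mean was 401 ± 9.75 CPM in WT against 277 ± 3.14 CPM (SD, n = 2 each), 0.690 times the WT level with a 95% interval of 0.645 to 0.739. On the log2 scale the difference was -0.54 ± 0.05 (SE; adjusted p = 7.47e-08, edgeR), the clearest fall of the family. The RNA comes from whole cultures, so fewer Dppa2-expressing cells and less Dppa2 RNA per cell cannot be told apart, which holds for every gene below.

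Dppa4 (ENSMUSG00000058550), the gene of the partner protein, was counted 2466 and 2346 times in WT, and 2214 and 2204 times in CBE-KO, or 169 and 171 CPM against 136 and 151 CPM. The groups did not overlap, but the CBE-KO libraries were 1.11-fold apart, farther than the WT libraries at 1.01-fold. The mean was 170 ± 1.26 CPM in WT against 144 ± 10.6 CPM (SD, n = 2 each), 0.848 times the WT level with a 95% interval of 0.783 to 0.918. The difference of -0.24 ± 0.05 on the log2 scale (SE; adjusted p = 0.00183, edgeR) became -0.16 (edgeR adjusted p = 0.0738) without CBE-KO replicate 1, so the call rests on that library. With library totals as the only scaling it was -0.13 (edgeR adjusted p = 0.0476).

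The balance within the pair was read without any scaling between libraries, as Dppa2 counts over Dppa4 counts. That ratio was 2.42 and 2.31 in WT and 2.05 and 1.81 in CBE-KO, or 0.816 times the WT ratio on average. It was lower in both CBE-KO libraries than in both WT libraries, so that Dppa2 was lower relative to Dppa4. With 2 libraries per group an exact permutation test cannot reach the threshold, and none is given. As a ratio of counts it says nothing about the amounts of the proteins.

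Dppa3 (ENSMUSG00000046323) was close to the floor, with 10 and 8 counts in the WT libraries and 6 in each CBE-KO library, and was removed by the expression filter. Its levels were 0.685 and 0.582 CPM without the deletion and 0.370 and 0.412 CPM with it. Entered without the filter, it differed by -0.69 ± 0.65 on the log2 scale (SE; adjusted p = 0.586, edgeR), so no difference was detectable at this depth. The pseudogene Dppa3-ps had no count in any library.

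Dppa5a (ENSMUSG00000060461) was counted 51916 and 47302 times in WT, and 68232 and 62642 times in CBE-KO. Its share of all counts was 0.340% and 0.333% in the WT libraries, against 0.436% and 0.444%, and by count it stood at rank 7 of all genes in both WT libraries and at rank 4 in both CBE-KO libraries. After scaling it was at 3497 ± 80.7 CPM in WT against 4255 ± 71.4 CPM (SD, n = 2 each), a rise of 1.22-fold with a 95% interval of 1.15 to 1.29. On the log2 scale this was 0.28 ± 0.04 (SE; adjusted p = 2.55e-05, edgeR), and the groups did not overlap. Dppa5a counts were 8.71 and 8.72 times the Dppa2 counts in the WT libraries and 15.1 and 15.7 times in the CBE-KO libraries. This ratio does not depend on the scaling between libraries, whereas each gene's own fold change does. With library totals as the only scaling the log2 fold changes were 0.39 for Dppa5a and -0.43 for Dppa2.

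The near-identical Dppa5 copies behaved otherwise. Dppa5b (ENSMUSG00000110919) had 10 and 17 counts in the WT libraries, 320 in CBE-KO replicate 1 and 54 in CBE-KO replicate 2. Both CBE-KO libraries exceeded both WT libraries, but they differed from each other by 5.31-fold, against a median of 1.08-fold over all tested genes for this pair. Of 10628 other tested genes with at least the mean level of Dppa5b, 4 had CBE-KO replicates at least as far apart. The mean was 0.960 ± 0.390 CPM in WT against 11.7 ± 11.3 CPM (SD, n = 2 each), with a log2 difference of 3.63 ± 0.59 (SE; adjusted p = 9.25e-05, edgeR). That call was lost with robust moderation of the dispersions (edgeR adjusted p = 0.222), which does not draw the spread of an exceptionally variable gene towards that of the others, and the log2 fold change was 1.95 without CBE-KO replicate 1.

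Dppa5c (ENSMUSG00000111423) had 159 and 55 counts in the WT libraries, 415 in CBE-KO replicate 1 and 91 in CBE-KO replicate 2, and the groups overlapped. Replicate 1 was the higher library in both groups, by 2.72-fold in WT and 4.09-fold in CBE-KO. Of 9177 other tested genes at or above its mean level, 6 had WT replicates at least as far apart, and 3 had CBE-KO replicates at least as far apart. The mean was 7.44 ± 4.87 CPM in WT, against 15.9 ± 13.7 CPM (SD, n = 2 each). The log2 difference of 1.10 ± 0.43 (SE; adjusted p = 0.0473, edgeR) lost its call in DESeq2 (adjusted p = 0.523) and with robust moderation (edgeR adjusted p = 0.556), and its sign turned to -0.26 (edgeR adjusted p = 0.550) without CBE-KO replicate 1. It was 2.01 without WT replicate 1, 0.56 without WT replicate 2 and 1.77 without CBE-KO replicate 2.

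**Figure D2:**
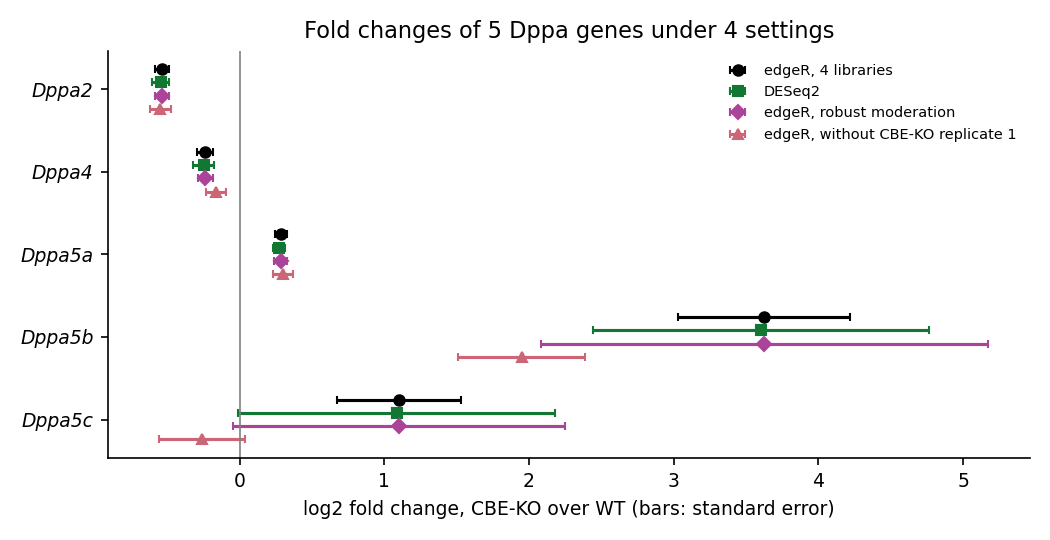
log2 fold change of CBE-KO over WT with its standard error (horizontal axis) for the 5 tested Dppa genes, in edgeR with 4 libraries, in DESeq2, in edgeR with robust moderation and in edgeR without CBE-KO replicate 1. Dppa2, Dppa4 and Dppa5a keep their side of 0 under these settings, and Dppa5c crosses it without CBE-KO replicate 1 (-0.26).

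Since reads of near-identical copies can be assigned to one or the other or dropped, each copy was also read as a share of the counts of the 3 genes together. Dppa5b took 0.0192% (exact Clopper-Pearson 95% interval 0.00921 to 0.0353) and 0.0359% (0.0209 to 0.0574) of these counts in WT. In CBE-KO it took 0.464% (0.415 to 0.518) in replicate 1 and 0.0860% (0.0646 to 0.112) in replicate 2. Dppa5c took 0.305% (0.260 to 0.356) and 0.116% (0.0875 to 0.151) in WT, and 0.602% (0.545 to 0.662) and 0.145% (0.117 to 0.178) in CBE-KO. The intervals, which cover counting error only, do not overlap between the replicates of CBE-KO for either copy, nor between those of WT for Dppa5c. The copies were thus no fixed share of Dppa5a counts. In CBE-KO both copies took the larger share in replicate 1, and in WT the intervals of Dppa5b overlap between the replicates. Whether these counts are transcripts of the copies or reads of Dppa5a placed on them was not tested.

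**Figure D3:**
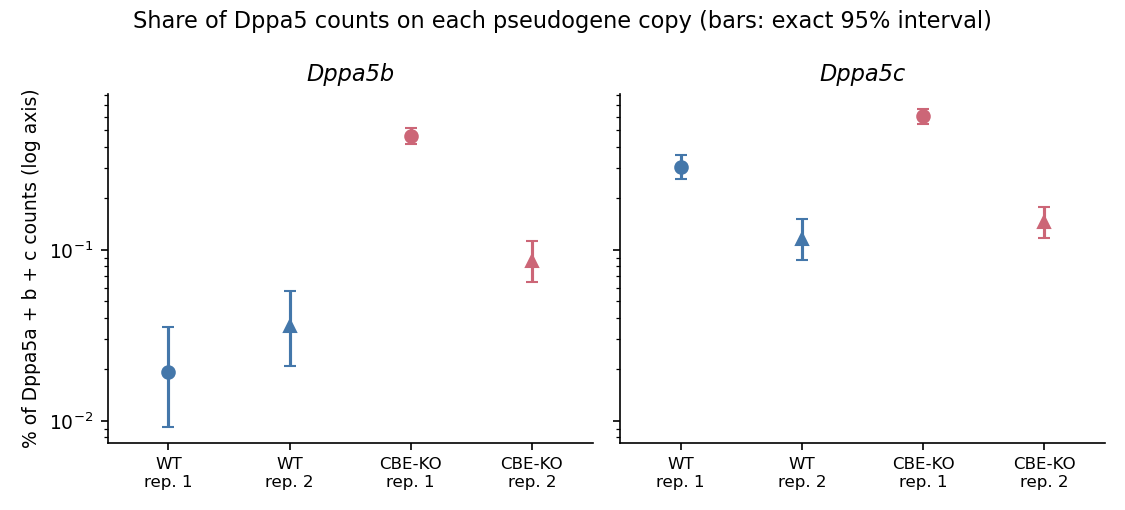
Counts of Dppa5b and of Dppa5c as a percent of the counts of the 3 Dppa5 genes (vertical axis, log scale) in each library, with exact 95% binomial intervals. CBE-KO replicate 1 is the highest library for both copies (0.464% and 0.602%), and no library reaches 1%.

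With the 3 Dppa5 genes added into 1 feature before the test, the WT sums were 52085 and 47374 and the CBE-KO sums 68967 and 62787. The sum differed by 0.29 ± 0.04 on the log2 scale (SE; adjusted p = 1.87e-05, edgeR), next to 0.28 for Dppa5a alone. Placing all reads of the 3 copies on 1 gene thus moved the value of Dppa5a by less than its standard error. Neither Dppa5b nor Dppa5c held more than 0.602% of the summed counts in any library. The sum could therefore move the value only slightly, and it does not test how the reads were placed. Reads that the counting may have dropped are not covered by this sum.

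Genes of the 2-cell stage that depend on Dppa2 and Dppa4 in embryonic stem cells were read next. Of 22 symbols listed, 21 were in the tables, 12 were tested and 11 passed, all 11 higher in CBE-KO, where Dppa2 and Dppa4 were lower. Over all tested genes 43.1% passed, 21.6% as higher. The median log2 fold change of the 12 tested genes was 2.01, beside 0.0067 over all tested genes. All 11 were at low levels, the highest being Zscan4d with a mean of 10.6 CPM in CBE-KO, and genes with fewer counts did not enter the test. Zscan4b, Usp17la, Usp17ld and Arg2 had fewer than 10 counts in both WT libraries, and Zscan4e and Zscan4f in WT replicate 2. These genes passed the expression filter through their CBE-KO counts, so the median and the number that passed lean towards higher. The summed level of the 21 genes in the tables, tested or not, was 15.3 and 14.9 CPM in the WT libraries and 56.8 and 56.1 CPM in the CBE-KO libraries, without overlap between the groups.

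The 6 Zscan4 genes, which encode zinc finger proteins of the 2-cell-stage embryo, together had 152 and 119 counts without the deletion and 585 and 494 with it, 3.67 times the WT level in CPM. Zscan4c went from 26 and 17 counts to 114 and 130, a log2 difference of 2.39 ± 0.25 (SE; adjusted p = 8.45e-07, edgeR). Zscan4e went from 17 and 7 counts to 65 and 53, a log2 difference of 2.17 ± 0.35 (SE; adjusted p = 7.64e-05, edgeR). The 4 Usp17l genes, a family of ubiquitin proteases, together went from 43 and 50 counts to 242 and 230, 4.67 times the WT level. Usp17le rose by 2.57 ± 0.23 and Usp17la by 2.65 ± 0.45 on the log2 scale (SE; edgeR adjusted p = 1.29e-07 and 0.000135). Members of each family are close copies of each other, so single genes are uncertain and the sums are the safer reading. Duxf3, the gene of the activator Dux, had 0 counts in all 4 libraries, which allows up to the floor of 3 counts in each. As the treatment of multi-mapped reads is not given, these 0 counts do not show that Dux was silent. Arg2 was tested without passing (0.92 ± 0.50, SE; edgeR adjusted p = 0.153).

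The partners of Dppa3 in DNA methylation, and factors that keep methylation at imprinted genes, made a list of 9, all tested. Of these 3 passed, all lower, beside 43.1% of all tested genes that passed and 21.5% that passed as lower. Uhrf1, which recruits the maintenance methyltransferase and is bound by Dppa3, went from 8334 and 7896 counts to 7576 and 6867 (-0.29 ± 0.04 on the log2 scale, SE; adjusted p = 5.74e-05, edgeR). Tet1, an enzyme that oxidises methylated cytosine, and Trim28, a corepressor at imprinted loci and retroelements, had log2 fold changes of -0.31 and -0.44. Dnmt1 (-0.11, edgeR adjusted p = 0.0563), Tet2, Tet3, Xpo1, Tdg and Zfp57 did not pass. With library totals as the only scaling, 6 of the 9 passed, 3 higher and 3 lower, and Uhrf1 was at -0.18.

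The relatives of Dppa5a among KH-domain genes, with the maternal protein complex that Ooep and Khdc3 belong to, made a second list of 9. Of these, 4 were tested and 2 passed, 1 higher and 1 lower, beside 43.1% of all tested genes that passed. Ooep, a KH-domain gene of the egg that lies 8.70 kb from Dppa5a, had 4706 and 4342 counts without the deletion and 4953 and 4580 with it, and did not pass (-0.04 ± 0.05, SE; edgeR adjusted p = 0.510). The sign of Ooep turned to 0.06 with library totals alone. Tle6, a Groucho-related member of that complex, had 124 ± 4.33 CPM in WT but 70.1 ± 3.37 CPM in CBE-KO (SD, n = 2 each). It was lower by 0.82 on the log2 scale (adjusted p = 4.90e-09, edgeR). Zbed3 rose by 0.30 (edgeR adjusted p = 0.0281), a call lost in DESeq2 (adjusted p = 0.168) and when WT replicate 1 or CBE-KO replicate 2 was left out. Khdc3 went from 50 and 39 counts in WT to 31 and 30 in CBE-KO and did not pass (-0.66 ± 0.28, SE, edgeR adjusted p = 0.0662). Khdc1b and Khdc1c had no count.

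Other transcripts associated with embryonic stem cells, as those of Dppa2, Dppa4 and Dppa5a are, made a list of 10. All 10 were tested and 7 passed, all lower, with a median log2 fold change of -0.61. Over all tested genes 43.1% passed, 21.5% as lower. Dnmt3l, a cofactor of de novo DNA methylation, had 531 ± 4.73 CPM in WT but 162 ± 4.77 CPM in CBE-KO (SD, n = 2 each). Its log2 difference was -1.71 ± 0.05 (SE, adjusted p = 3.85e-14, edgeR). Eras, a Ras-like gene of these cells, fell by 1.29 and L1td1, an RNA-binding protein of retrotransposon origin, by 0.78 on the log2 scale. Utf1 belonged to the same group, at -1.67. These 4 were named as the largest changes of the list. The others that passed were Gdf3 (-0.56), Zfp42 (-0.42) and Tcl1 (-0.25, edgeR adjusted p = 0.0187). The log2 fold changes of Dppa2 (-0.54) and Dppa4 (-0.24) were near those of these smaller changes, and Dppa5a had the opposite sign to all 7. Of the 3 that did not pass, Fbxo15 was at 0.04, Sox15 at -0.16 and Khdc3 at -0.66.

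**Figure D4:**
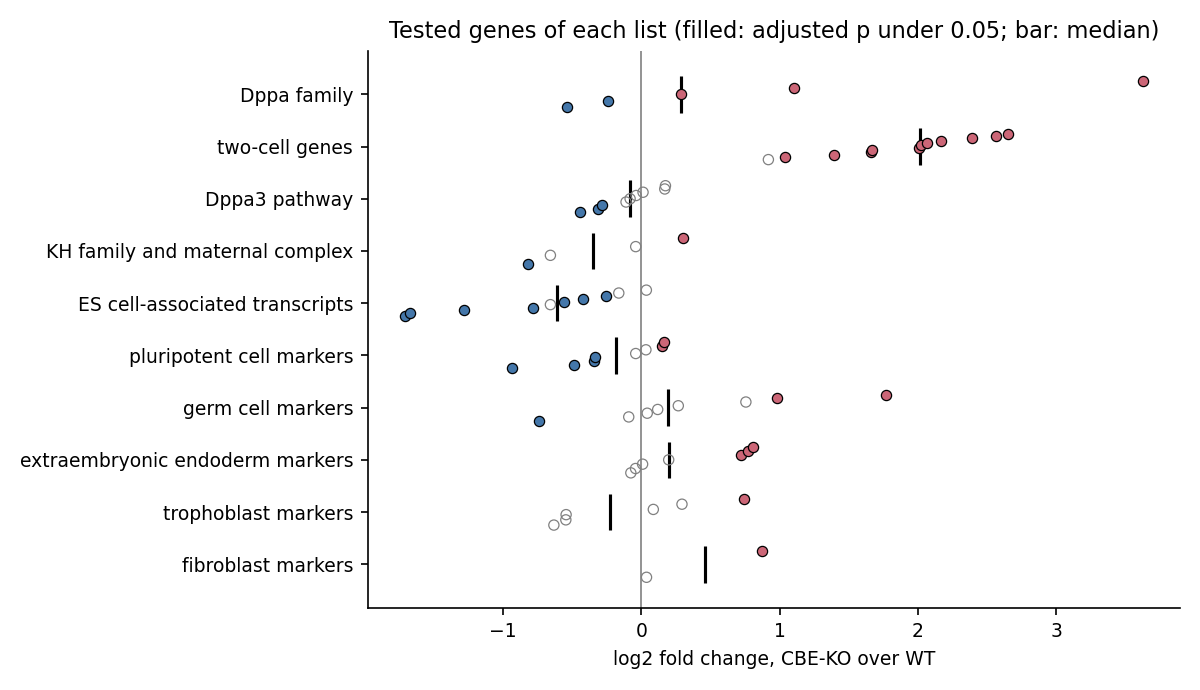
log2 fold change of CBE-KO over WT (horizontal axis) of the tested genes of each list, filled where edgeR's adjusted p was under 0.05 and open otherwise, with the list's median as a bar. The genes of the 2-cell stage lie to the right of 0 (median 2.01) and the ES cell-associated transcripts mostly to the left (median -0.61).

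Markers of cell types that express Dppa genes or could be present were read beside these values, and their part in the results was not tested. Their counts stand beside 43.1% of all tested genes that passed, 21.6% as higher and 21.5% as lower. Of the 8 pluripotent cell markers 6 passed, 4 lower (Sall4 -0.94, Klf4 -0.49, Sox2 -0.35 and Pou5f1 -0.33 in log2 fold change) and 2 higher. The 2 higher, as Dppa5a was, were Nanog (0.15, edgeR adjusted p = 0.0107) and Tfcp2l1 (0.16, edgeR adjusted p = 0.0272). Of the 8 germ cell markers 3 passed: Dazl rose by 1.77 and Kit by 0.98, and Tfap2c fell by 0.74 on the log2 scale, with summed levels of 190 to 200 CPM in WT and of 310 to 319 CPM in CBE-KO. Of the 7 extraembryonic endoderm markers 3 passed, all higher (Sox7 0.81, Dab2 0.77 and Gata4 0.72), at summed levels of 87.5 CPM in each WT library and of 98.6 to 101 CPM in CBE-KO. Dab2 did not pass in DESeq2 or without CBE-KO replicate 1. Of 6 tested trophoblast markers 1 passed (Tfap2a, 0.74), and all 7 listed summed to 20.8 to 23.7 CPM over the 4 libraries. This call too was lost in DESeq2, as it was without WT replicate 2 or CBE-KO replicate 1. Of the 2 tested fibroblast markers Col1a1 passed (0.88).

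The 3 nearest protein-coding genes on each side of every member, from RefSeq, gave 23 distinct neighbours, of which 14 were tested: 7 were higher, 2 lower and 5 did not pass. Over all tested genes 43.1% passed, 21.6% as higher and 21.5% as lower. On the Dppa2 side of the pair, Morc1, a germline gene of transposon silencing, lies 112 kb away. It was higher by 0.23 ± 0.06 (SE, edgeR adjusted p = 0.00302), opposite to Dppa2 and Dppa4. Nectin3 (0.11), 1785 kb from Dppa4, did not pass. Gm4737, farther out, was lower by a log2 fold change of -0.14, a call lost with upper-quartile scaling, with library totals alone and without WT replicate 2 or either CBE-KO library. Beside Dppa3, Gdf3, a TGF-beta family ligand gene 16.3 kb away, was lower (-0.56 ± 0.07, SE; edgeR adjusted p = 2.88e-06).

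Beyond Dppa3 on its other side, Nanog (0.15), Slc2a3 (0.44) and Foxj2 (0.44) were higher. Slc2a3 encodes a glucose transporter, and its counts went from 24646 and 24861 to 38704 and 34331. The call of Nanog was lost when either CBE-KO library was left out, and that of Foxj2 in DESeq2 and without WT replicate 1 or CBE-KO replicate 2. Apobec1 (0.35), 23.4 kb from Dppa3 on the side of Gdf3, did not pass. Around the Dppa5 genes, Gsta4 (0.19), Ick (0.48, Cilk1 in RefSeq) and Cgas (1.19) were higher, while Ddx43 (0.18) did not pass. The call of Gsta4 was lost without CBE-KO replicate 2. Gsta1 and Gm3776, the coding genes closest to Dppa5b and Dppa5c, had no count in any library, as Retnlb beyond Dppa2 did. Trat1, Gsta2, Omt2a, Omt2b and Gm10639 had at most 7 counts in any library and were not tested, and Gm52257 had no identifier that matched.

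Genes with the pattern most like that of a member were sought among 11113 genes of at least 5 CPM, by the Euclidean distance between log2 CPM over the 4 libraries, each centred on its mean. With 4 libraries in 2 groups such likeness reflects little beyond a similar fold change. The closest to Dppa2 were Krr1, Npepl1 and Etf1 (distances 0.0146, 0.0148 and 0.0210). The closest to Dppa4 were Gm46339, Lage3 and Neu3 (0.0125, 0.0223 and 0.0234), and to Dppa5a Ssbp3, Zbtb12 and Shisa5 (0.00940, 0.0109 and 0.0117). For the copies nothing was close: the nearest to Dppa5b were Hoxc4, Cap2 and Usp17le at 1.71, 1.76 and 1.76, and to Dppa5c Mat2a, Rps27a-ps2 and Gm44126 at 1.02, 1.05 and 1.15. Mat2a, which encodes an enzyme that makes S-adenosylmethionine, had 1051 and 421 counts without the deletion and 1236 and 449 with it, and like Dppa5c it was higher in replicate 1 of both groups.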

How the data were processed

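Per the values, the authors deposited whole-number read counts per Ensembl gene, 1 table per RNA-seq library. The submitters' processing notes name HISAT2 2.1.0, HTSeq 0.9.1 and DESeq2 1.18.1 and the build mm10, with no role, and the treatment of multi-mapped reads, the use of strand and the annotation release are not given in the sources used here. Reads of near-identical genes, of overlapping genes and of antisense genes cannot be told apart. Symbols matched 52403 of 52636 identifiers. Capture-C libraries were not analysed here.

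Genes passing filterByExpr (minimum count 10, minimum total 15) were tested with edgeR 4.0.16 (R 4.3.3), TMM scaling, glmQLFit and glmQLFTest, two-sided, without covariates, with Benjamini-Hochberg adjustment over all 16005 genes and a threshold of 0.05. CPM are TMM-scaled over the counts of tested genes. Alternatives were DESeq2 1.42.0, other scalings and filters, a replicate block, stricter thresholds and leaving out each library, and robust moderation was added after the data were seen. Where 1 library was left in a group, it was assumed to vary like the other group. On simulated counts for 16005 genes with 200 changed by a log2 fold change of 1 between CBE-KO and WT, edgeR recovered 167 and made 6 other calls. Every simulated gene had the same dispersion, and far fewer genes were changed than the 6895 that passed here. The simulation therefore does not cover genes as variable as Dppa5b and Dppa5c.

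The replicates differed by more than sampling noise (chi-square per degree of freedom 3.40 for WT and 2.70 for CBE-KO), and each library was treated as 1 replicate. These values cannot tell separate cultures from separate preparations of the same culture. The members and lists were chosen with earlier results of these data known. Named were all members and their neighbours, from each list the 4 largest changes that passed at 1 CPM or more in either group, and the 3 genes of nearest pattern. The values of 1 neighbour are not reported here. Single genes of lists named beyond this rule were chosen after their values were seen.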

Additional observations from a re-analysis of the deposited data

How the results depend on the processing

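The directions of Dppa2, Dppa4, Dppa5a, Dppa5b and the Dppa5 sum held under every scaling, filter, tool and left-out library tried. With 1 library left out, log2 fold changes were -0.56 to -0.51 for Dppa2, -0.31 to -0.16 for Dppa4 and 0.26 to 0.31 for Dppa5a. They were 0.26 to 0.31 for the sum, 1.95 to 4.36 for Dppa5b and -0.26 to 2.01 for Dppa5c. For Dppa3, removed by the filter, the plain log2 ratio of mean CPM was -0.81 to -0.57. It comes from no fit and rests on 6 to 10 counts per library. Dppa2 (-0.54), Dppa4 (-0.24), Dppa5a (0.28) and the sum (0.29) stayed under a log2 fold change of 1 in size. Robust moderation took the calls of Dppa5b (3.63) and Dppa5c (1.10), DESeq2 that of Dppa5c (1.08), and an adjusted p under 0.01 that of Dppa5c (1.10). The cause was not tested. Over all alternatives the adjusted p ranged from 8.73e-05 to 0.0738 for Dppa4, 1.85e-46 to 0.222 for Dppa5b and 6.02e-20 to 0.556 for Dppa5c. The number of genes that passed, 6895, was 4577 in DESeq2 (2047 higher, 2530 lower) and 1383 where the log2 fold change also had to be 1 or more in size (975 higher, 408 lower), and 5385 to 6500 with 1 library left out. With library totals alone the median over all genes was 0.11 on the log2 scale, and the share of passing genes that were higher went from 50.2% to 67.0%. The replicate block gave 7027 genes, 6807 of them among the 6895, and changed no member's call. With library totals alone Dppa4 was at -0.13, Nanog at 0.25 and Gsta4 at 0.30. Deviations of same-numbered libraries had a correlation of 0.035, so the numbers were not taken as pairs.

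Of the lists, the genes of the 2-cell stage had 8 to 11 calls, all higher. The Dppa3 list had 6 calls with library totals and 0 with the minimum fold change. The KH list, 2 calls, had 1 in DESeq2, 1 at an adjusted p under 0.01, 0 with the minimum fold change and 1 to 2 with 1 library left out. With the minimum fold change the ES cell-associated list had 3, the germ cell list 1, and the pluripotent, endoderm, trophoblast and fibroblast lists 0. The ES cell-associated list, 7 calls, had 6 in DESeq2, with library totals alone and at an adjusted p under 0.01. The trophoblast list also had 0 in DESeq2 and at an adjusted p under 0.01, and 0 to 1 with 1 library left out, and the fibroblast list had 2 without the filter. Of 52 other named genes, signs turned for Ooep (0.063 with library totals), Mat2a (-0.74 to 0.82 with 1 library left out) and Gm44126 (-0.15 to 0.87).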

Other observations

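Among tested genes with at least the mean level of Dppa5c, those with replicates at least as far apart as its own in either group were few, and were looked up after its values were seen. Apart from genes near the floor in WT (Wnt10b and Uba1y), they were Coro1b (49, 215, 147 and 847 counts in WT 1, WT 2, CBE-KO 1 and CBE-KO 2), Uqcrc1 (78, 46, 52 and 1002), Gm10123 (2366, 6682, 4621 and 1336), Gm12411 (505, 95, 433 and 413), Gm10241 (138, 1318, 435 and 671) and Gm5855 (92, 127, 108 and 542). In none of these 6 was CBE-KO replicate 1 the highest library, as it was for Dppa5b and Dppa5c. Uqcrc1, which encodes a subunit of respiratory complex III, passed the edgeR test (log2 fold change 3.02, adjusted p = 0.00434) on a single high library.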
